A study of Homo sapiens with 6 samples.

Results

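The zinc finger cluster of 7q11 was examined in parental and onvansertib-resistant H526 cells. It is represented by 9 of the 62710 gene rows analysed, *ZNF727*, *ZNF679*, *ZNF736*, *ZNF680*, *ZNF107*, *ZNF138*, *ZNF273*, *ZNF117* and *ZNF92*, named here in their order on chromosome 7. Together they span 1.36 Mb of the proximal long arm (GRCh38, chromosome 7, 64045434 to 65401136, positions from Gencode v44). The cluster was chosen by the normalized values of *ZNF736* in these same libraries, which were lower in resistant cells, and its members were then listed by name and position, so the differences of these 9 genes between the groups are a description. How many of them the fit across all genes called is given for completeness and supports nothing. H526 is an established human small cell lung cancer line. RNA was taken at 3 separate times from parental cells (libraries 1, 2 and 3) and from resistant cells (libraries 7, 8 and 9), which had been grown in onvansertib, an inhibitor of the mitotic kinase PLK1, raised from 10 nM to 75 nM over a year. Both groups come from the same cell line. Whether the resistant population goes back to 1 clone is not given in the sources used here, and without a drug-free culture of the same length, drug and time in culture cannot be told apart. The p-values given for other genes measure the spread between RNA harvests of 1 line, which may be technical. An exact permutation test of 3 against 3 libraries cannot go below p = 0.1, so single values were not tested that way.

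Most genes of this kind encode KRAB zinc finger proteins. Their KRAB domain recruits the corepressor TRIM28 (KAP1) and with it the histone methyltransferase SETDB1, and their C2H2 zinc fingers read DNA, often within transposable elements. The genes lie in clusters that grew by tandem duplication, mainly on chromosome 19 and, in primates, also on 7q11, so that neighbours resemble each other in promoter and protein.

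The values in resistant cells differed widely between the genes of the cluster. *ZNF736* was 24.3-fold lower in resistant than in parental cells, the low-level gene *ZNF727* on its centromeric side was listed at 0, and *ZNF680* on its other side was at 36.5% of the parental level. The genes from *ZNF107* on were at 56.8% (*ZNF117*) to 91.5% (*ZNF92*) of it. *ZNF679* was listed at 0 in all 6 libraries. A lower value in bulk RNA may come from fewer cells that express a gene or from less RNA per cell, and these cannot be told apart here.

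The libraries held between 22360536 and 28506596 reads, estimated from the value of 1 read in the deposited normalized table, and 3 reads corresponded to a value of at most 3.22, a limit that covers counting error only. The parental libraries were the deeper ones. H526 belongs to the tuft-like, POU2F3-positive subtype, and *POU2F3* was between 24511 and 27873 in all libraries while *NEUROD1* reached 5.49 at most. The 6 tuft-like markers summed to 71673 to 72569 in parental and 65540 to 67268 in resistant libraries. Among them *AVIL* fell from a mean of 20954 to 12018 and *TRPM5* rose from 189 to 643 (adjusted p = 5.34e-06 and 5.34e-05 by limma). The 4 neuroendocrine markers summed to 11191 to 12564 in parental and 4289 to 4991 in resistant libraries. Of 6 markers of leucocytes, endothelium and fibroblasts, the leucocyte and endothelial markers *PTPRC*, *CD3E*, *LYZ* and *PECAM1* stayed under 3 reads, and the sum of all 6 was 69.2 to 97.8 in parental and 237 to 308 in resistant libraries, most of it *COL1A1*. The part of these shifts in the values below was not tested.

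The promoters of the cluster fall into recognisable kinds, which is why their sequences are shown first. RefSeq windows (GRCh38.p14), which reach from 250 bases before to 50 bases after the start of a gene, were found for all 9 genes, with a second one for *ZNF273*. The start is that of RefSeq, and for *ZNF736*, *ZNF273* and *ZNF117* it lies well inside the longer Gencode span given for the gene here. An octamer-like stretch of 8 letters was searched for only in the most upstream part of each window, on the strand of the gene. In 7 of the 10 windows it lies between 216 and 243 bases before the start, a position partly set by that search. It is the octamer ATGCAAAT, the sequence bound by POU-family proteins, in *ZNF680*, *ZNF107*, *ZNF138*, *ZNF273* and *ZNF92*, and ATACAAAT in *ZNF736* and *ZNF727*, which differs by G3A, counted from the first letter of the octamer. The stretch is shown with its surroundings, 5′ to 3′ on the strand of the gene, with the 8 letters in capitals.
ZNF736: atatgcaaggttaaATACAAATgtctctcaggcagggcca
ZNF727: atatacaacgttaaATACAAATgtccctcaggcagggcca
ZNF680: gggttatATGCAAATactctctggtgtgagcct
ZNF107: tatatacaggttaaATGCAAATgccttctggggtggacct
ZNF138: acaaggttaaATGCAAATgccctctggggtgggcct
ZNF273: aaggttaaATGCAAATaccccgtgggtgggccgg
ZNF92: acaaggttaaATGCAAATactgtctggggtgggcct
These stretches lie at chr7:64313731-64313770 for *ZNF736*, chr7:64045198-64045237 for *ZNF727*, chr7:64563289-64563321 for *ZNF680* (minus strand), chr7:64665883-64665922 for *ZNF107*, chr7:64794178-64794213 for *ZNF138*, chr7:64903023-64903056 for *ZNF273* and chr7:65373605-65373640 for *ZNF92*, with all but *ZNF680* on the plus strand. Over all 35116 promoter windows of the same 300 bases, 1.77% held ATGCAAAT and 0.834% held ATACAAAT on either strand, and of 647 windows of genes named ZNF 3.40% and 0.927% did.

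The 250 bases before the RefSeq start of *ZNF736* (chr7:64313711-64313960) and of *ZNF92* (chr7:65373605-65373854) are given in full, because these genes stand at the ends of the range of change. Capitals mark the octamer-like letters and CCAAT, the box bound by NF-Y, searched on both strands.
ZNF736: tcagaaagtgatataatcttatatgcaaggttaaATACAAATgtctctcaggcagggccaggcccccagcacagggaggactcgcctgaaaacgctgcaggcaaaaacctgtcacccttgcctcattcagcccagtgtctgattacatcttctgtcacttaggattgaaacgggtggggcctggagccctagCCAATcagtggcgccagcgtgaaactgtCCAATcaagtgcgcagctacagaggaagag
ZNF92: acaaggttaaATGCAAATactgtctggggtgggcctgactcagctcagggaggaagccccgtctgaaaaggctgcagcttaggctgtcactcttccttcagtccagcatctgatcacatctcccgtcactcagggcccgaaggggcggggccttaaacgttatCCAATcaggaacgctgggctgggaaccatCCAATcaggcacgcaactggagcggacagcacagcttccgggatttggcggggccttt
Both windows held 2 CCAAT boxes, at 58 and 30 bases before the start in *ZNF736* and at 87 and 58 bases before it in *ZNF92*. All 7 windows with an octamer-like stretch held 2 CCAAT boxes on the strand of the gene, and 10.8% of all windows held 2 or more on either strand. The windows of *ZNF736* and *ZNF727* also share AATATGGC, beginning at bases 12 and 10 of the transcribed part, letters found on either strand in 0.587% of all windows. *ZNF680*, *ZNF273* and *ZNF92* have GATTTGGC 17 bases before the start and *ZNF107* has it 11 bases before, against 0.726% of all windows. In full-length alignment the windows of *ZNF736* and *ZNF727* were 84.0% identical, the 5 windows with ATGCAAAT were 78.6% to 84.8% identical to each other, and the 2 kinds were 55.3% to 60.4% identical to one another. The windows of *ZNF679*, of *ZNF117* and of the more upstream start of *ZNF273* had neither kind of stretch in the part searched. They were 44.1% to 49.1% identical to the rest and to each other. A match of letters is a description and not evidence of binding.

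*ZNF736* (ENSG00000234444, chromosome 7, 64307459 to 64356634, plus strand) was at 941, 822 and 1059.5 in parental libraries 1, 2 and 3 and at 43.2, 28.8 and 44.2 in resistant libraries 7, 8 and 9. The 2 groups were far apart, and the lowest parental library was above every resistant one. The parental mean was 941 ± 119 and the resistant mean 38.7 ± 8.60 (SD, n = 3), a difference of -4.58 on the log2(value + 1) scale with a standard error of 0.19. *ZNF736* encodes a protein with 9 C2H2 fingers, counted as C-x2-C-x12-H-x3-5-H in the translation of the canonical Gencode transcript.

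*ZNF727* (ENSG00000214652, 64045434 to 64085339, plus strand), with 10 fingers, was at 23.2, 15.6 and 16.7 in the parental libraries while every resistant library was listed at 0. Its mean of 9.24 over the 6 libraries was under the minimum of 10 for the fit across genes. *ZNF679* (ENSG00000197123, 64228474 to 64266931, plus strand), which lies between *ZNF727* and *ZNF736*, was listed at 0 in every library. So were *ZNF722* and *ZNF735*, protein-coding zinc finger genes that the annotation also places on this side of *ZNF736*.

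*ZNF680* (ENSG00000173041, 64519878 to 64563075, minus strand), with 12 fingers, was at 519, 437 and 331 in parental and at 154, 137 and 179.7 in resistant libraries. The groups did not overlap, and the parental libraries differed more among themselves than those of *ZNF736*, relative to their mean. The mean went from 429 ± 94.3 to 157 ± 21.7 (SD, n = 3), a log2 difference of -1.43 (standard error 0.18).

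**Figure D1:**
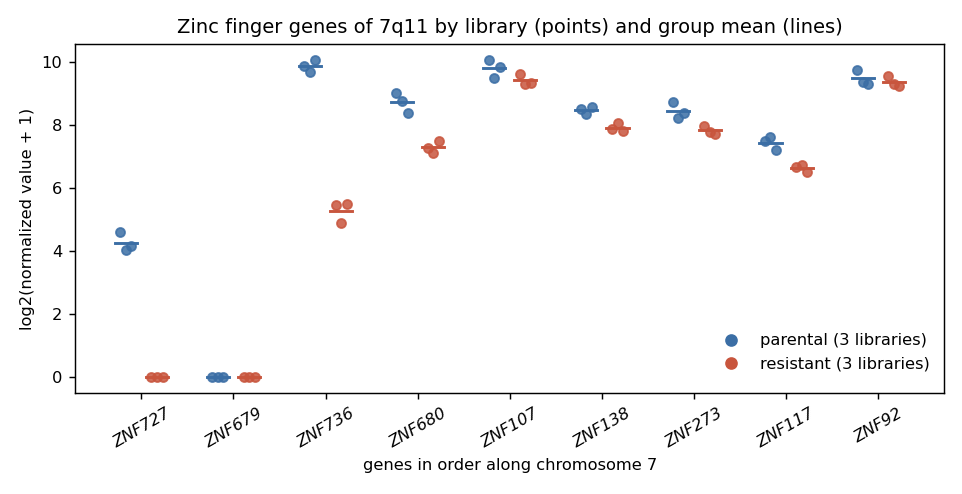
Log2(normalized value + 1) of the 9 zinc finger genes, in order along chromosome 7, in 3 parental (blue) and 3 resistant (red) libraries; points are libraries and lines are group means. The gap between the groups is widest for *ZNF736* and *ZNF727*, smaller for *ZNF680*, and the groups overlap for *ZNF107* and *ZNF92*.

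The other 5 genes with signal differed less between the groups. *ZNF138* (ENSG00000197008, 64794388 to 64833681, plus strand) was at 360.0, 326 and 378 in parental and at 232, 267 and 222 in resistant libraries, without overlap and with a log2 difference of -0.56 (standard error 0.13). Its canonical protein has only 2 fingers that fit the pattern, the fewest of the 9 genes. *ZNF273* (ENSG00000198039, 64870172 to 64930981, plus strand) was at 421, 297 and 329 in parental and at 251, 219 and 211 in resistant libraries, also without overlap (log2 difference -0.61, standard error 0.16). *ZNF117* (ENSG00000152926, 64971772 to 65006684, minus strand) was at 178, 198 and 145 against 101, 104 and 90.3, again without overlap, with a log2 difference of -0.80 (standard error 0.18). These 3 genes were at 67.7%, 65.0% and 56.8% of the parental mean.

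*ZNF107* and *ZNF92*, the genes with the highest resistant values, had overlapping groups. *ZNF107* (ENSG00000196247, 64666099 to 64711577, plus strand), which with 16 fingers has the longest array of the cluster, was at 1072, 725 and 917 in parental and at 792, 636 and 647 in resistant libraries. Its log2 difference was -0.38 (standard error 0.14). *ZNF92* (ENSG00000146757, 65373799 to 65401136, plus strand), with 11 fingers, was at 866, 662 and 634 against 748, 625 and 603, a log2 difference of -0.12 (standard error 0.14). For *ZNF92* every resistant library lay below parental library 1, and 1 of them above the other parental libraries. The value of *ZNF92* turned to 0.02 without parental library 1, so its sign rested on that library.

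In all, 8 of the 9 genes had values above 0 and all 8 had a lower mean in resistant cells. The fit of limma across all genes took in 7. At a Benjamini-Hochberg adjusted p under 0.05 it called 5 of them, all lower in resistant cells, and *ZNF107* and *ZNF92* did not pass. Of all 16347 genes tested it called 37.7%, of which 3244 were lower and 2917 higher. At an unadjusted p under 0.05 the members counted 6 lower and 0 higher. The 37.7% does not apply to that threshold, for which the share of all genes was not counted. Parental and resistant libraries lay apart without overlap for 5 of the 7 genes, all of them lower in resistant cells, as against 49.9% of all genes tested in either direction and 25.9% in the lower one. The median log2 difference of the 7 genes was -0.61, and that of all genes tested was -0.00086. Since this contrast was used to choose the genes, nothing is read from these counts.

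**Figure D2:**
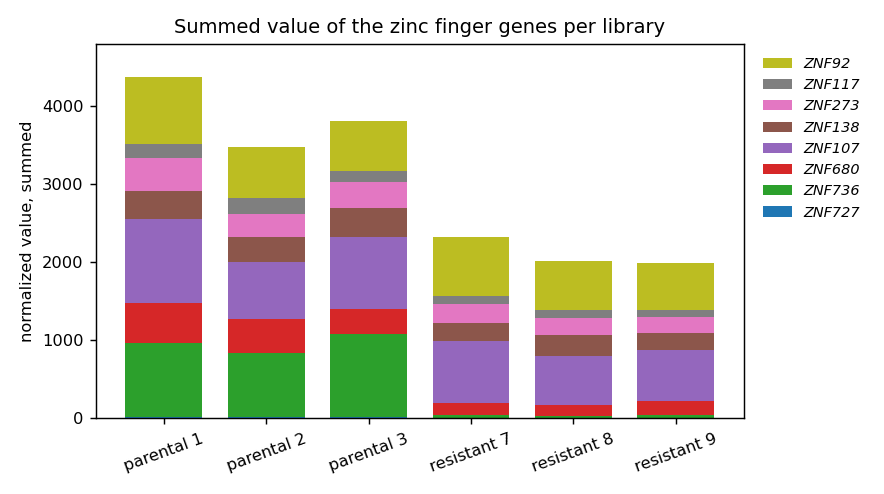
Normalized values of the zinc finger genes stacked for each of the 3 parental and 3 resistant libraries (vertical axis: summed normalized value). The sum lies between 3482 and 4380 in parental and between 1997 and 2321 in resistant libraries, and the *ZNF736* segment nearly disappears.

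The sum over the 9 genes does not depend on how reads were divided among them. It was 4379.5, 3482 and 3811 in parental libraries and 2321, 2017 and 1997 in resistant ones, so that the resistant mean was 54.3% of the parental mean. Without *ZNF736* the resistant sum was 70.3% of the parental one, and over the 5 expressed genes from *ZNF107* on it was 76.6%. *ZNF736* made up 24.3% ± 3.21 (SD, n = 3) of the sum in parental cells and 1.83% ± 0.393 in resistant cells. The shares of *ZNF107* and *ZNF92* went from 23.1% ± 2.0 to 32.7% ± 1.3 and from 18.5% ± 1.63 to 31.2% ± 1.03 (SD, n = 3), although their own values were not higher. The share of *ZNF680* was 11.03% ± 2.06 and 7.47% ± 1.33, with overlapping libraries.

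Levels can be compared between genes only per length. Per kb of exon, *ZNF92* had the highest normalized value in parental cells at 205 ± 36.0 (SD, n = 3), followed by *ZNF138* at 124 ± 9.30. Next came *ZNF736* at 84.1 ± 10.6, *ZNF107* at 79.9 ± 15.4 and *ZNF680* at 77.1 ± 16.97, whose libraries overlapped from each gene to the next. *ZNF273* at 40.3 ± 7.42, *ZNF117* at 16.2 ± 2.47 and *ZNF727* at 2.18 ± 0.485 followed, each without overlap with the gene before it. In resistant cells *ZNF92* at 188 ± 22.3 and *ZNF138* at 84.2 ± 8.28 were again highest, and *ZNF736* took place 7 at 3.46 ± 0.769, below *ZNF117* at 9.22 ± 0.689. *ZNF680* at 28.2 ± 3.90 and *ZNF273* at 26.2 ± 2.45 overlapped. With the length of the canonical transcript in place of all exons, 4 of the 9 genes changed place in the parental order, *ZNF736* from place 3 to place 5. *ZNF107* then took place 2 in both groups, and *ZNF138* went from place 2 to place 4 in parental and place 3 in resistant cells, while *ZNF92* stayed highest and *ZNF736* stayed at place 7 in resistant cells.

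**Figure D3:**
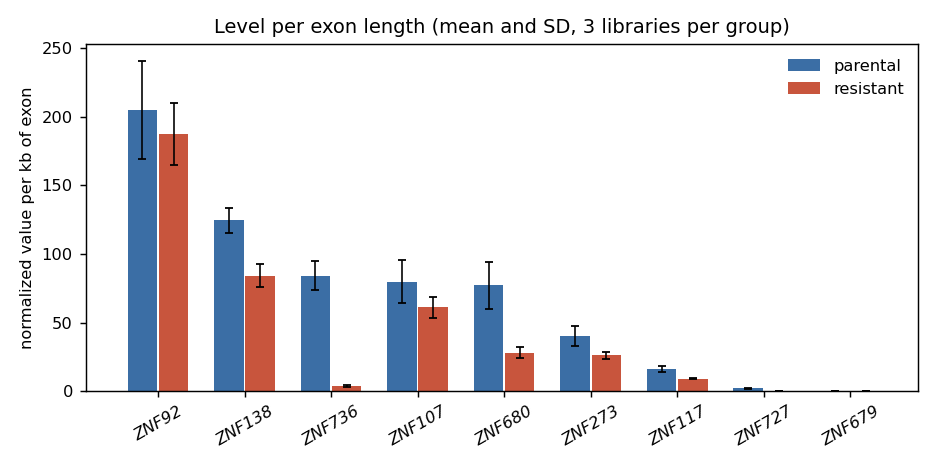
Normalized value per kb of exon for the 9 genes, ordered by the parental mean, in parental (blue) and resistant (red) cells; bars are means and error bars SD over 3 libraries. *ZNF92* is highest in both groups, and *ZNF736* drops from place 3 to place 7.

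The proteins of the 9 genes were between 28.7% (*ZNF107* and *ZNF138*) and 71.2% identical over 36 pairs, with a median of 48.1%. The closest pair was *ZNF727* and *ZNF736*, the same pair that shares ATACAAAT in the promoter window. The next pair was *ZNF273* and *ZNF680* at 70.8%. Despite this likeness few exact stretches of 100 bases are shared. This length stands for a read, since no read length was given. Stretches that are alike but not identical were not counted, so reads could still be divided between genes. Of the distinct 100-base stretches of its transcripts, *ZNF680*, *ZNF107*, *ZNF138* and *ZNF92* shared none with any other Gencode gene on either strand, *ZNF727* 1.10%, *ZNF679* 1.16%, *ZNF273* 5.50%, *ZNF736* 5.64% and *ZNF117* 5.92%. The stretches of *ZNF736* were shared with the pseudogene *TRIM60P18*, which lies within it, and those of *ZNF117* with *ERV3-1*. No such stretch was shared between 2 of the 9 genes.

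*ERV3-1*, the envelope gene of an endogenous retrovirus, overlaps *ZNF117* on the same strand (chromosome 7, 64990356 to 65006743), and 12.7% of its 100-base stretches also belong to *ZNF117*. It was at 112, 86.4 and 116 in parental and at 143, 186 and 197 in resistant libraries, a log2 difference of 0.73 (standard error 0.20, adjusted p = 0.0142 by limma), higher where *ZNF117* was lower. Reads of the shared part could have been given to either gene, so both values are uncertain. By limma the adjusted p of *ERV3-1* ranged from 0.00769 to 0.0559 over the alternatives, and its call was lost without resistant library 8 and without resistant library 9.

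The protein-coding neighbours had values close to parental or higher. Of 16 other protein-coding genes that begin between 62 and 68 Mb, 12 were tested, with a median log2 difference of 0.05. Limma called 2 of them higher and 0 lower, where 37.7% of all genes were called in either direction. At an unadjusted p under 0.05, to which that share does not apply, the counts were 3 higher and 0 lower. *VKORC1L1*, a paralog of the vitamin K epoxide reductase and the first of these genes after *ZNF92*, was at 2924 ± 52.3 and 2684 ± 99.7 (SD, n = 3; log2 difference -0.12, adjusted p = 0.144 by limma). The called genes were *ERV3-1* and *ASL*, the argininosuccinate lyase of the urea cycle, which rose from 379 ± 21.8 to 497 ± 20.5 (SD, n = 3; log2 difference 0.39, adjusted p = 0.0139 by limma). The call of *ASL* was lost without resistant library 9, and its adjusted p by limma ranged from 0.00265 to 0.0518 over the alternatives. *GUSB*, the lysosomal beta-glucuronidase, was at 2230 ± 203 and 2657 ± 267 (SD, n = 3), and did not pass (adjusted p = 0.0559 by limma).

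Further out, the median log2 difference of tested genes other than the 9 was -0.18 for 7 genes between 54 and 56 Mb and -0.22 for 5 between 56 and 58 Mb, on the other side of the centromere, and 0.04 for 9 genes between 66 and 68 Mb. It was -0.60 for 17 genes between 72 and 74 Mb and -0.46 for 18 between 74 and 76 Mb. Of these steps 11 genes each were called lower, and 2 and 1 were called higher, where 37.7% of all genes were called in either direction. The lowest single value between 54 and 80 Mb outside the cluster was -3.90, between 76 and 78 Mb, against -4.58 for *ZNF736*.

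Rows with no coding gene, picked after their values were seen, also had low resistant values around *ZNF736*. Rows were kept by their parental mean alone, so a row low in parental and higher in resistant libraries could not enter. *GABPAP*, a pseudogene just before *LINC02848*, was left out in this way, with means of 0.619 in parental and 2.46 in resistant libraries. The counts of lower rows are thus a description, and nothing is read from them. From *LINC02848* to the start of *ZNF680*, 6 rows had a parental mean above 3 reads, and all 6 had a lower resistant mean, at a median of 2.06% of the parental one. Beside *ZNF727* and *ZNF736* these were the long non-coding RNAs *LINC02848*, at 13.1, 1.71 and 7.39 in parental libraries, and ENSG00000287985, at 10.7, 18.3 and 9.80, both listed at 0 in resistant libraries, and the pseudogenes *HNRNPCP7* and ENSG00000227910. *HNRNPCP7* was at 8.90, 14.4 and 10.8 in parental libraries and under 3 reads in all resistant ones. The groups overlapped for ENSG00000227910, at 6.74, 7.13 and 0.649 in parental and 0, 4.45 and 0 in resistant libraries. Its resistant mean was 30.6% of the parental one. From *ZNF680* to *ZNF92* 13 rows passed the same limit, 11 of them with a lower resistant mean, at a median of 73.5% of the parental one. These rows include the members from *ZNF680* to *ZNF92*, already described, and *ERV3-1*. The median is the value of the pseudogene ENSG00000232906, which was at 8.02, 1.93 and 5.88 in parental and 2.09, 4.16 and 5.38 in resistant libraries, with overlap. The lowest of the 13 rows was the processed pseudogene ENSG00000234338, between *ZNF138* and *ZNF273*, at 124, 134 and 157 in parental and 40.8, 67.7 and 39.8 in resistant libraries. At 35.7% of parental it lay slightly below *ZNF680*, and the groups did not overlap (log2 difference -1.50, adjusted p = 0.00105 by limma). Beyond *ZNF92*, the long non-coding RNA ENSG00000291124 was also called lower, at 70.8% of parental (log2 difference -0.50, adjusted p = 0.0269 by limma). Further out, ENSG00000272831 (log2 difference 0.60) and *LINC02604* (0.54) were called higher.

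**Figure D4:**
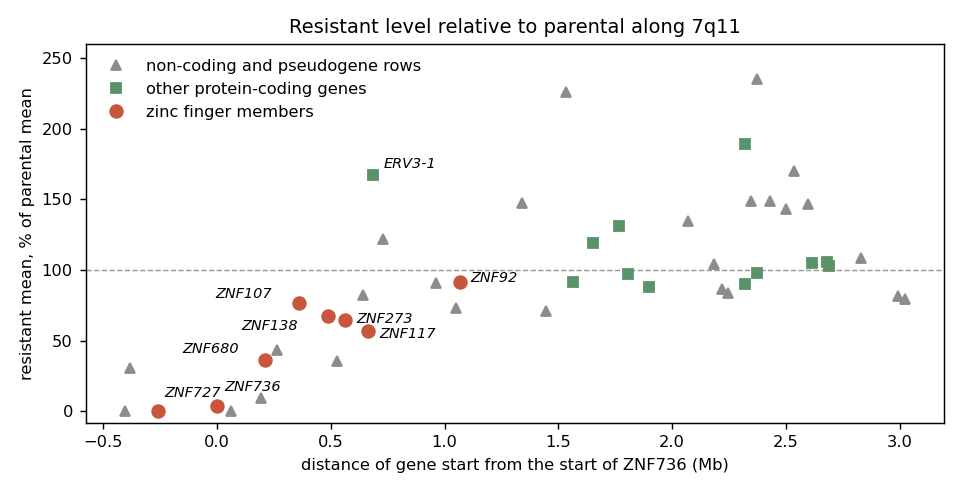
Resistant mean as a percentage of the parental mean (vertical axis) against the distance of a gene's start from the start of *ZNF736* (horizontal axis, Mb), for zinc finger members (red), other protein-coding genes (green squares) and non-coding or pseudogene rows (grey triangles) with a parental mean above 3 reads between 62 and 68 Mb. The rows around *ZNF727* and *ZNF736* lie near 0 apart from the pseudogenes *HNRNPCP7* (9.26%) and ENSG00000227910 (30.6%), and *ZNF680* lies at 36.5%. The rows beyond *ZNF92* scatter on both sides of 100% (dashed line), from 70.8% (ENSG00000291124) to 236% (ENSG00000289015).

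Other zinc finger genes give a frame for these values. On the rest of chromosome 7, 25 of 30 genes named ZNF, ZKSCAN, ZSCAN or ZFP were tested. Limma called 14 lower and 1 higher in resistant cells, where 37.7% of all genes were called in either direction. Of the 25 log2 differences 22 were below 0, and the median was -0.37. The largest falls were those of *ZNF3* (-0.72) and *ZNF746* (-0.63), both at least 30 Mb away, and *ZNF853* on the short arm was the only gene called higher (0.38). *ZNF425* (0.43) and *ZNF789* (0.24) were also higher but not called. None of these 25 genes fell as far as *ZNF117*, *ZNF680* or *ZNF736*. The calls of this list were largely lost when each gene was centred on its 51 neighbours, with 1 lower and 4 higher.

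Among genes other than the 9, the nearest relatives of the members by protein identity lie mostly on chromosome 19. Its band 19p12 holds another large cluster of this subfamily. The 19p12 genes had already been seen to be lower in these libraries and give no independent support. Of 34 ZNF genes of 19p12, 23 were tested, and limma called 18 lower and 0 higher (19 lower and 0 higher at an unadjusted p under 0.05), with a median log2 difference of -1.77. Of all genes tested 37.7% were called in either direction, a share that applies to the adjusted threshold only. At a minimum mean of 50 the median was -0.81, with 12 called lower. *ZNF737* fell from 293 ± 58.1 to 1.17 ± 0.901 (SD, n = 3), under 3 reads, and *ZNF730* from 62.3 ± 5.15 to values listed at 0. Among the members with signal, *ZNF92* had the closest relative outside the cluster, *ZNF708* at 72.1% identity, which was at 295.7 ± 44.9 and 245 ± 32.0 (SD, n = 3; log2 difference -0.27, not called). The nearest relative of *ZNF736* outside the cluster, *ZNF506* (54.9% identical), went from 179 ± 20.5 to 24.7 ± 11.4, and that of *ZNF727*, *ZNF682* (58.2%), from 156 ± 12.4 to 46.2 ± 13.2 (SD, n = 3). *ZNF43*, the nearest such relative of *ZNF107* at 66.1%, fell from 555 ± 24.9 to 29.4 ± 10.2 (SD, n = 3), while *ZNF107* was at 76.5% of parental. Of the 9 nearest relatives that are not members, 8 lie on chromosome 19, 5 were tested and 3 were called lower. The remaining relative is *ZNF735*, 81.3% identical to *ZNF679*, which lies within the span of the cluster.

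**Figure D5:**
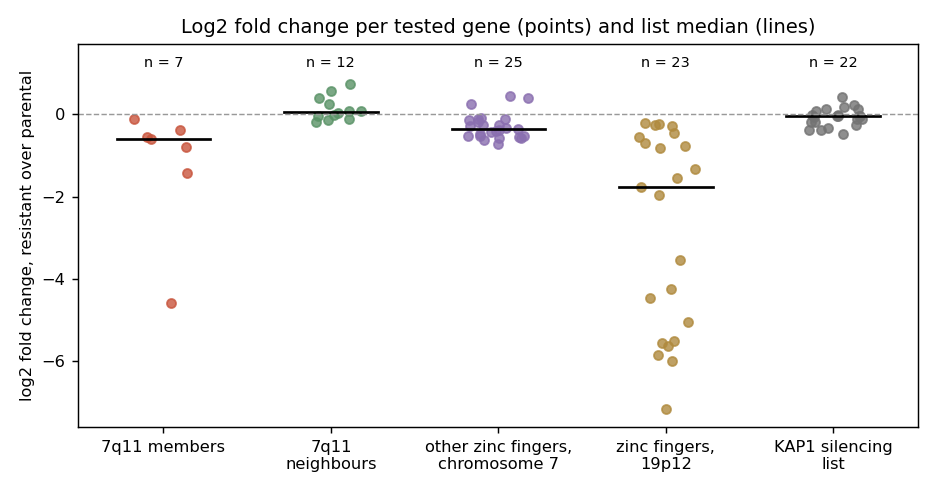
Log2 difference between resistant and parental cells for each tested gene (points) and the median of each list (black lines), for the 7 tested members, 12 neighbours between 62 and 68 Mb, 25 other zinc finger genes of chromosome 7, 23 zinc finger genes of 19p12 and 22 genes of the KAP1 silencing list. The members and the 19p12 genes reach far below 0, with *ZNF736* at -4.58, while the neighbours lie around 0.

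Over all other ZNF genes of the genome outside 19p12, limma called 131 of 439 tested lower and 27 higher, where 37.7% of all genes were called in either direction. Of the 439 genes 309 had a log2 difference below 0, and the median was -0.18. With centring on 51 neighbours 65 were called lower and 44 higher, with a median of -0.02. Among the called genes the largest falls were those of *ZNF175*, from 233 to 2.05, and *ZNF135*, from 31.9 to 1.34 (means, n = 3). The largest called rises were those of *ZNF541*, listed at 0 in parental libraries and at 34.8 in resistant ones, and *ZNF469*, from 15.8 to 46.9 (means, n = 3). Of the 22 ZNF genes with the octamer ATGCAAAT in a promoter window, 12 outside the cluster were tested, including genes of 19p12. Limma called 3 of them lower and 0 higher, to be set beside the 37.7% of all genes called. All 12 log2 differences were below 0, with a median of -0.35 and a range from -1.77 (*ZNF682*) to -0.18.

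The 5 tested genes nearest to *ZNF736* in pattern, by Euclidean distance of the centred log2(value + 1) values over the 6 libraries, were ENSG00000280079 of 19p12 (distance 0.55), *CSTF2T* (0.57), *TMSB4Y* (0.61), *GALC* (0.66) and *CHGA* (0.75). *CSTF2T*, a paralog of the cleavage stimulation factor subunit CSTF2, went from 622 ± 43.4 to 21.1 ± 7.66, and *CHGA*, the neuroendocrine granule protein chromogranin A, from 254 ± 48.3 to 12.8 ± 3.28 (SD, n = 3). The other genes, ENSG00000280079, *TMSB4Y* and *GALC*, had low parental means of 26.8, 24.7 and 27.9. Their resistant libraries were all under 3 reads. The size of their fall, and so their distance to *ZNF736*, depends on the 1 added before the logarithm. None of the 5 lies on chromosome 7. Among the tested members *ZNF680* was nearest, at a distance of 3.93, with 278 tested genes other than *ZNF736* nearer than it. *ZNF727* was not compared, since its mean was under the minimum for the fit, so its place is not known.

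The KAP1 genes were looked at because most proteins of this family work through them. *TRIM28* was at 26996 ± 1158 in parental and 23606 ± 2771 in resistant cells and *SETDB1* at 4434 ± 146 and 4346 ± 235 (SD, n = 3), with log2 differences of -0.20 and -0.03, neither called by limma (adjusted p = 0.0897 and 0.750). The libraries of *TRIM28* did not overlap between the groups and those of *SETDB1* did. All 22 genes of the KAP1 complex, its heterochromatin partners and the HUSH complex were tested. Limma called 5 lower and 2 higher, where 37.7% of all genes were called in either direction. Of the 22 log2 differences 16 were below 0, and the median was -0.06. The smallest p among the called genes belonged to *TRIM24*, a relative of TRIM28, with a log2 difference of -0.48, *UHRF1*, which guides maintenance DNA methylation, with -0.35, and *MPHOSPH8*, the chromodomain subunit of HUSH, with 0.42.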

How the data were processed

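Bulk RNA-seq of parental and resistant H526 cells (3 libraries each) was analysed. The submitters' processing notes name Trimmomatic 0.38, STAR, RSEM 1.3.1 and DESeq2 1.30.0, with GRCh38 and Gencode v43. The deposited table holds the authors' normalized signal, gene estimates divided by size factors and not per length, so the count test of the plan was not used. Whole reads were not recovered, since 49.5% to 62.0% of low values lay within 0.05 of a whole multiple. Of 62757 rows, 47 second copies of pseudoautosomal genes were dropped. Symbols, positions and exon lengths came from Gencode v44.

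The values were log2(value + 1) transformed and 16347 genes with a mean of at least 10 were fitted with limma 3.58.1 in R 4.3.3 (intensity trend), resistant against parental, with Benjamini-Hochberg adjustment over all of them and a threshold of 0.05. On simulated data (15805 genes) 63 of 96 genes changed by 1 on the log2 scale and 86 of 96 changed by 2 were recovered, and 3.87% of calls were unchanged genes. The members and lists were chosen with earlier results of these data known, and the promoter motifs, the non-coding rows and the canonical length after the values or windows were seen. Named were the 9 members, zinc finger genes and ERV3-1 between 62 and 68 Mb, the neighbours with the 3 smallest p and those nearest on each side. Also named were the 5 genes most like ZNF736, TRIM28, SETDB1 and the 3 called KAP1 genes with the smallest p. Of each zinc finger list the 2 largest rises and falls among called genes were named, and the closest relatives by protein or shared sequence. Proteins were translated from canonical transcripts and aligned with Biopython 1.88. As alternatives, the pseudocount was set to 0.1 or 10, the minimum mean was dropped or raised to 50, the values were rescaled by TMM or by quantiles, the trend was left out, each gene was centred on its 51 neighbours, and each library was left out in turn. For levels, the canonical transcript length was used.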

Additional observations from a re-analysis of the deposited data

How the results depend on the processing

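No paired analysis was possible because the groups share no replicate numbers. Over all alternatives the members called lower numbered 5 to 7 and those called higher 0, the value of *ZNF736* lay between -4.69 and -4.30 on the log2 scale, and the summed value of the members between 51.6% and 57.9% of parental. *ZNF107* passed the threshold without parental library 2 (-0.53) and without resistant library 7 (-0.48). *ZNF727* entered the fit and was called with no filter (-4.26) and without any 1 resistant library, since its mean then passed 10. *ZNF92* was -0.12 and reversed to 0.0334 with centring on 51 neighbouring genes, and leaving out 1 library gave -0.2161 (without resistant library 7) to 0.0184 (without parental library 1). With that centring, 6 of the 7q11 neighbours were called higher, where 30.2% of all genes were called in either direction. Of the other zinc finger genes of chromosome 7, 1 was called lower and 4 higher, and their median reversed to 0.022. Of all other zinc finger genes, 65 were called lower and 44 higher, with a median of -0.0239. The 19p12 median was -0.8149 at a minimum mean of 50, where 12 genes were called lower, and -1.265 with the centring, where 13 were. The cause was not tested. Without the trend 1 gene of the KAP1 list was called higher in place of 2. Leaving out 1 library at a time gave 1 to 2 genes called higher in the KAP1 list and 0 to 3 among the 7q11 neighbours, with 0 without resistant library 9. With the canonical transcript length, 4 members changed place in the parental order. Of 372 values under alternatives, 349 kept their direction and side of the threshold or moved little. Depth limits *ZNF727*, at 15.6 to 23.2 in parental libraries, and *ZNF679*, listed at 0.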
